A study of Homo sapiens with 7 samples.

Results

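The antiviral restriction factors described here are 10 genes, MX1, MX2, BST2, IFITM1, IFITM2, IFITM3, SAMHD1, TRIM5, TRIM22 and RSAD2, taken by symbol from the deposited expression table, and all 10 were among the 11408 genes with values. The cells were MOLM13, an established line from a human acute myeloid leukemia, measured by RNA sequencing of poly(A) RNA collected 6 days after transduction. The 4 sgZFP36L2 libraries carried 1 of 2 guide RNAs against ZFP36L2, with 2 libraries for each guide, and the 3 sgRosa libraries carried a non-targeting guide. The deposited columns call the ZFP36L2 guides 3 and 5, and these names are kept because nothing in the files ties them to the numbers in the labels. The design text calls the comparison a knockout, the labels name no single-cell clone, and no source used here ties the replicates to separate cultures. The p-values therefore cover only the spread between these libraries. For the fitted changes, that is the spread within each guide and within the controls, and differences between the 2 guides do not enter it.

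Restriction factors are host proteins that block a step of viral replication. Many are induced by interferons, which signal through receptors and JAK kinases to transcription factors, among them STAT2 and IRF9, that act at a promoter element built on repeats of GAAA. IFITM proteins sit in membranes and hinder fusion of virus with the cell, Mx proteins are dynamin-like GTPases that act on incoming viral complexes, SAMHD1 degrades dNTPs and RSAD2 (viperin) makes a chain-terminating nucleotide. TRIM5 and TRIM22 belong to the tripartite motif family of ubiquitin ligases, and BST2 (tetherin) holds budding virions at the cell surface. ZFP36L2 is a zinc finger protein that recognizes AU-rich stretches of 3′ UTRs and speeds decay of the mRNAs that carry them.

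Promoter windows from RefSeq (GRCh38.p14), running from 250 bases before to 50 bases after a transcription start, were available for 7 of the 10 genes. They were searched on both strands for 2 GAAA blocks with any 2 bases between them, the core of the interferon-stimulated response element. The motif was present in a window of 6 of the 7 genes, SAMHD1 being the one with no match, while 3.57% of all 35116 windows and 4.38% of the 27305 genes in the same table held it. MX2, IFITM2 and TRIM22 had no window to search. The stretches around the matches are shown because these genes include MX1, IFITM3, RSAD2 and IFITM1, which are among those with the largest changes below. Capitals mark the match, which shows TTTC blocks where it lies on the other strand.
RSAD2, chr2:6877602-6877671, plus strand: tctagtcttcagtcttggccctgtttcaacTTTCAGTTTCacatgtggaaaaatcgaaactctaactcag
IFITM1, chr11:313970-314069, plus strand: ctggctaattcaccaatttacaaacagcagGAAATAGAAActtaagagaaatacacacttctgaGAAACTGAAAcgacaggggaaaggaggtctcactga
IFITM3, chr11:320856-320942, minus strand: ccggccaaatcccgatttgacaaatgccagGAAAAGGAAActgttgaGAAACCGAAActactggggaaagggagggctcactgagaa
TRIM5, chr11:5685062-5685131, minus strand: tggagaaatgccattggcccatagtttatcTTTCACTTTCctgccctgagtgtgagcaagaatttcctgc
BST2, chr19:17405715-17405790, minus strand: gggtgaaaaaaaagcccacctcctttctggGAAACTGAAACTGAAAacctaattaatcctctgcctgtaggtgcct
MX1, chr21:41420539-41420587, plus strand: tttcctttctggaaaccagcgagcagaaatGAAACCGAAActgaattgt
IFITM1 and IFITM3 each held 2 separate matches, and the 2 matches of BST2 overlapped in a run of 3 GAAA blocks. The MX1 match shown starts 11 bases after a transcription start, and another of its 3 windows also held 1 match. The RSAD2 match lies before the second of the gene's starts in the table, and the window of the first start held none. A match is a description of the letters in the window and no measurement of binding was made.

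TATTTAT, the core of the AU-rich element that proteins of this family bind, was searched in the 3′ UTR of the main GENCODE 29 transcript of each gene, on the sense strand. It was present in 2 of the 10 genes, SAMHD1 with 1 site and TRIM5 with 2 sites, while 32.3% of the 10362 coding genes with a 3′ UTR held at least 1. The sites are shown with 9 bases on each side, with the motif in capitals.
SAMHD1: ctgctacagTATTTATtagttccag
TRIM5, site 1: tctgccagaTATTTATcacccaatt
TRIM5, site 2: aaatatgtaTATTTATtatttgtca
The 5 genes with the largest changes below, MX1, IFITM3, RSAD2, MX2 and IFITM1, had 0 such sites in the transcripts searched. Their 3′ UTRs had 459, 172, 2300, 713 and 162 bases, in that order, against a median of 1095 over these coding genes. Those of SAMHD1 and TRIM5 had 3162 and 1255 bases, and those of TRIM22, BST2 and IFITM2 had 1218, 406 and 230. Longer 3′ UTRs leave more room for a match, and the shares given here were not corrected for length. The shorter ATTTA occurred 6 times in RSAD2, 2 times in MX2, 1 time in MX1 and 0 times in IFITM1 and IFITM3. It occurred 5 times in SAMHD1, 3 times each in TRIM5 and TRIM22 and 0 times in BST2 and IFITM2. Of the coding genes with a 3′ UTR, 69.6% held at least 1.

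Values are given as CPM, reads scaled to a common library size adjusted by the authors, recovered from the deposited FPKM. The libraries held 28088053 to 38807816 reads on the listed genes with the ZFP36L2 guides and 16907955 to 25164359 reads in the controls, so that 1 read stood for 0.0261 to 0.0540 CPM. ZFP36L2 mRNA itself was higher in the libraries labelled sgZFP36L2, with 1132 and 1353 CPM for guide 3 and 734 and 690 CPM for guide 5, against 337, 334 and 311 CPM in the controls. Its log2 change was 1.52 ± 0.16 (limma, adjusted p = 1.3e-05), so this mRNA does not check the labels, and directions are given for libraries as labelled. The 8 myeloid genes used to check the cell line (PTPRC, CD33, SPI1, MPO, FLT3, HOXA9, MEIS1 and CSF3R) were all present at a mean of over 29 CPM in both groups. Control replicate 2 stood apart: its median of ratios size factor was 1.19, against 0.939 to 1.01 in the other 6 libraries, and mitochondrial pseudogenes took 0.160% of its reads, against 0.0463% to 0.0828% in the others. Calls of the 10 genes that change without it are given both ways.

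Of the 10 restriction factors 9 were higher with the mean of both ZFP36L2 guides than in the controls and none was lower at an adjusted p of 0.05. Across all genes tested, 20.9% were called higher and 20.6% lower. The median log2 change was 1.83 over the 10 genes and -0.05 over all 11408. Changes were estimated with limma on log2(CPM + 0.5), with Benjamini-Hochberg adjustment over all genes, and are given as estimate ± SE. For 7 of the 10 (MX1, MX2, BST2, IFITM1, IFITM3, SAMHD1 and RSAD2) every guide library lay above every control library, while 19.8% of all genes showed this separation. IFITM2, TRIM22 and TRIM5 had overlapping groups. IFITM1 and RSAD2 were among the genes with values only because of their guide libraries, as described below, so their separation was in part fixed beforehand. The sequenced RNA is that of a whole culture, in which fewer cells expressing a gene and less RNA per cell cannot be told apart.

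**Figure D1:**
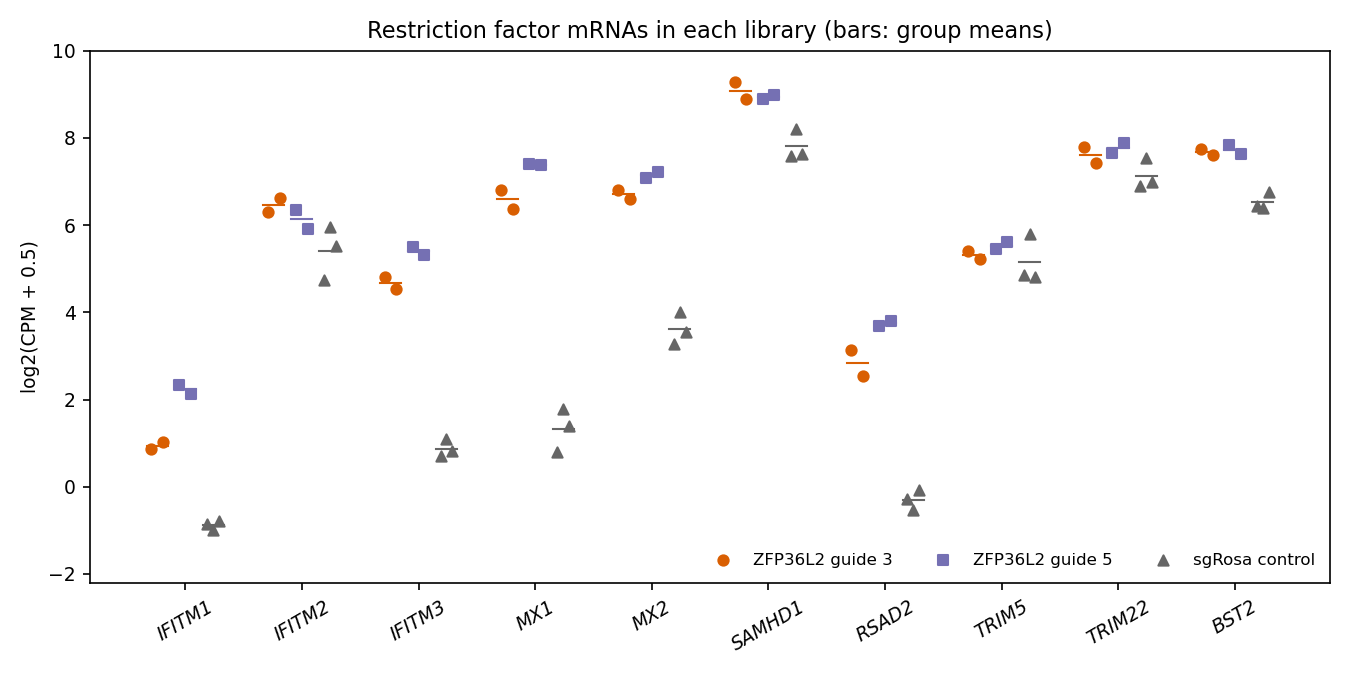
Level of each restriction factor mRNA in each library, as log2(CPM + 0.5), with ZFP36L2 guide 3 (circles), ZFP36L2 guide 5 (squares) and sgRosa controls (triangles); short bars are group means. MX1, MX2, IFITM1, IFITM3 and RSAD2 show wide gaps between the guide and control libraries, while IFITM2, TRIM5 and TRIM22 overlap.

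The 3 IFITM genes lie within a short stretch of chromosome 11 (GRCh38, GENCODE 29, as for all gene positions here): IFITM1 at 313506 to 315272 and IFITM2 at 307631 to 315272 on the plus strand, and IFITM3 at 319669 to 327537 on the minus strand. IFITM3, which acts on endosomal membranes, had 27.7 and 22.7 CPM with guide 3 and 44.6 and 39.0 CPM with guide 5, against 1.13, 1.64 and 1.27 CPM in the controls. All 4 guide libraries were far above all 3 controls, and the log2 change was 4.16 ± 0.20 (adjusted p = 1.2e-08). IFITM1, which acts mainly at the cell surface, had 1.31 and 1.54 CPM with guide 3 and 4.58 and 3.87 CPM with guide 5, against 0.0540, 0 and 0.0819 CPM in the controls. The control values rest on 1, 0 and 2 reads, against 43, 59, 171 and 113 reads in the guide libraries, where 0 reads in control replicate 2 allows up to 0.140 CPM. Over the pooled reads the guides were 60.2-fold higher (95% exact interval 20.4 to 293, counting error only). Every gene with values had at least 1 CPM in 2 libraries, and IFITM1 reached this in the guide libraries only. IFITM1 was thus included because of those libraries, which neither the interval nor the call takes into account. The fitted log2 change of IFITM1 was 2.47 ± 0.24 (adjusted p = 5.9e-06), and with so few control reads its size follows the added constant: it was 4.18 with 0.1 CPM added, 1.77 with 1 CPM added, 5.42 with voom on the recovered reads and 1.42 after quantile normalization. The guide 3 call alone was lost after quantile normalization (log2 change 0.59, limma adjusted p = 0.066).

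IFITM2, the third gene of the cluster, was already expressed in the controls. It had 77.9 and 98.1 CPM with guide 3 and 80.8 and 60.0 CPM with guide 5, against 26.5, 61.3 and 45.8 CPM in the controls. The lowest guide library lay just below the highest control, and the log2 change was 0.88 ± 0.25 (adjusted p = 0.016). The call did not hold without control replicate 1 (log2 change 0.55, adjusted p = 0.077), without replicate 2 of guide 3 (adjusted p = 0.052) or without replicate 1 of guide 5 (adjusted p = 0.061), nor with a correction for GC content and length (adjusted p = 0.056). Within each library the reads of IFITM3 came to 0.231 to 0.650 of those of IFITM2 in the guide libraries and to 0.0267 to 0.0429 in the controls, a ratio that does not depend on how libraries are scaled. That log2 ratio differed by 3.71 between the groups (two-sided exact permutation p = 0.057, the smallest that 4 against 3 libraries can give).

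Reads of the IFITM genes are in part hard to assign. IFITM1 lies within the span of IFITM2 on the same strand and shares 351 exon bases with it, 32.5% of its own exon bases and 22.7% of those of IFITM2. Of the 50-base windows along the main transcript, 42.3% for IFITM1, 15.8% for IFITM2 and 20.3% for IFITM3 occur unchanged in transcripts of other genes, mostly of this family. IFITM3 also shares 21.3% of its exon bases with AC136475.5 on the opposite strand. How the authors' counting treated such reads is not given in the sources used here, so the levels of these 3 genes, and of IFITM1 most, are uncertain.

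MX1 and MX2 are neighbors on the plus strand of chromosome 21, MX2 at 41361943 to 41409390 and MX1 at 41420304 to 41459214. MX1, active against influenza and other RNA viruses, had the largest fitted change of the 10 with 0.5 CPM added. It had 112 and 82.8 CPM with guide 3 and 168 and 165 CPM with guide 5, against 1.24, 2.95 and 2.13 CPM in the controls. The groups were widely separated, with a log2 change of 5.66 ± 0.23 (adjusted p = 3.6e-09). MX2, which blocks nuclear entry of HIV-1 among other viruses, had 112 and 97.0 CPM with guide 3 and 135 and 148 CPM with guide 5, against 9.18, 15.6 and 11.2 CPM in the controls. Its log2 change was 3.32 ± 0.20 (adjusted p = 7.2e-08), again with no overlap. In the guide libraries the reads of MX1 came to 0.854 to 1.24 of those of MX2, against 0.135 to 0.190 in the controls. The log2 ratio differed by 2.62 (two-sided exact permutation p = 0.057, the smallest possible). The main transcripts of the pair share under 1% of their 50-base windows (0.555% of those of MX1 and 0.635% of those of MX2).

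SAMHD1, the dNTP hydrolase that limits reverse transcription in myeloid cells (chromosome 20, 36889773 to 36951901, minus strand), was the most abundant of the 10 by reads. It had 618 and 472 CPM with guide 3 and 473 and 510 CPM with guide 5, against 193, 294 and 198 CPM in the controls. No guide library overlapped a control, and the log2 change was 1.20 ± 0.19 (adjusted p = 0.00047). The guide 5 call alone did not hold without replicate 2 of that guide (log2 change 1.08, adjusted p = 0.056). SAMHD1 shares 10.3% of its exon bases with TLDC2 on the opposite strand. The library kit keeps strand, but whether the counting used it is not given in the sources used here.

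RSAD2, viperin (chromosome 2, 6865806 to 6898239, plus strand), was close to the limit of detection in the controls. It had 8.29 and 5.28 CPM with guide 3 and 12.4 and 13.5 CPM with guide 5, against 0.324, 0.187 and 0.450 CPM in the controls. The control values rest on 6, 4 and 11 reads. Every guide library was above every control, the log2 change was 3.59 ± 0.24 (adjusted p = 2.1e-07), and over pooled reads the guides were 29.6-fold higher (95% exact interval 19.3 to 48.0, counting error only). Like IFITM1, RSAD2 reached 1 CPM in the guide libraries only, so its call and interval have the same limit. CMPK2, a mitochondrial nucleotide kinase gene next to RSAD2 on the opposite strand, also rose, with 32.5 ± 10.7 CPM in the guide libraries and 1.81 ± 0.45 CPM in the controls (SD, n = 4 and n = 3). Its log2 change was 3.79 ± 0.22 (adjusted p = 5.3e-08). The ratio of RSAD2 to CMPK2 reads was 0.272 to 0.317 in the guide libraries and 0.0833 to 0.333 in the controls, which overlap (two-sided exact permutation p = 0.29). Over the 4 pairs of genes whose read ratios were compared, all chosen after the values were seen, the adjusted p was 0.076 for 3 of them and 0.29 for this one.

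TRIM22 and TRIM5 overlap in position on opposite strands of chromosome 11, TRIM22 at 5689689 to 5737089 (plus) within the span of TRIM5 at 5663557 to 5938619 (minus). TRIM22, an interferon-induced ligase found to act on HIV-1 transcription, had 221 and 171 CPM with guide 3 and 202 and 235 CPM with guide 5, against 119, 185 and 126 CPM in the controls. One guide library lay below control replicate 2, and the log2 change was 0.55 ± 0.19 (adjusted p = 0.037). This call did not hold when control replicate 1 (adjusted p = 0.14), control replicate 3 (0.088) or any one guide library (0.055 to 0.14) was left out. Without control replicate 2 the log2 change of TRIM22 was 0.75 (adjusted p = 0.0015), and with the correction for GC content and length it was 1.00 (adjusted p = 0.00011).

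TRIM5, which recognizes incoming retroviral capsids, was the one gene of the 10 that did not pass the threshold. It had 41.8 and 37.1 CPM with guide 3 and 43.0 and 48.4 CPM with guide 5, against 28.3, 55.4 and 27.4 CPM in the controls. Control replicate 2 was the highest of all 7 libraries and the other 2 controls were the lowest. The log2 change was 0.27 ± 0.24, with a 95% interval of -0.24 to 0.79 (adjusted p = 0.37). It was 0.60 (adjusted p = 0.0047) without control replicate 2, 0.52 (adjusted p = 0.011) with library weights and 0.64 (adjusted p = 0.0064) with the GC and length correction. Without control replicate 1 it was 0.12 (adjusted p = 0.75), and without control replicate 3 it was 0.10 (adjusted p = 0.76). The ratio of TRIM22 to TRIM5 reads was 4.60 to 5.27 in the guide libraries and 3.33 to 4.59 in the controls (two-sided exact permutation p = 0.057). The GC content of the main transcript was 41.8% for TRIM22 and 43.8% for TRIM5, against a median of 48.8% over all genes. Of the 50-base windows of TRIM5, 11.3% occur in transcripts of other genes, and 10.7% of the exon bases of TRIM22 are shared with OR56B1 on the same strand.

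BST2, tetherin (chromosome 19, 17402939 to 17405648, minus strand), was higher in every guide library. It had 214 and 194 CPM with guide 3 and 228 and 198 CPM with guide 5, against 86.5, 83.2 and 108 CPM in the controls. The log2 change was 1.17 ± 0.17 (adjusted p = 0.00017). BST2 was the only gene of the 10 besides RSAD2 and IFITM1 whose level in control replicate 2 was below the mean of the other 2 controls, at 0.856 of it. That ratio ranged from 1.36 to 1.99 for IFITM3, TRIM22, SAMHD1, MX2, IFITM2, MX1 and TRIM5.

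**Figure D2:**
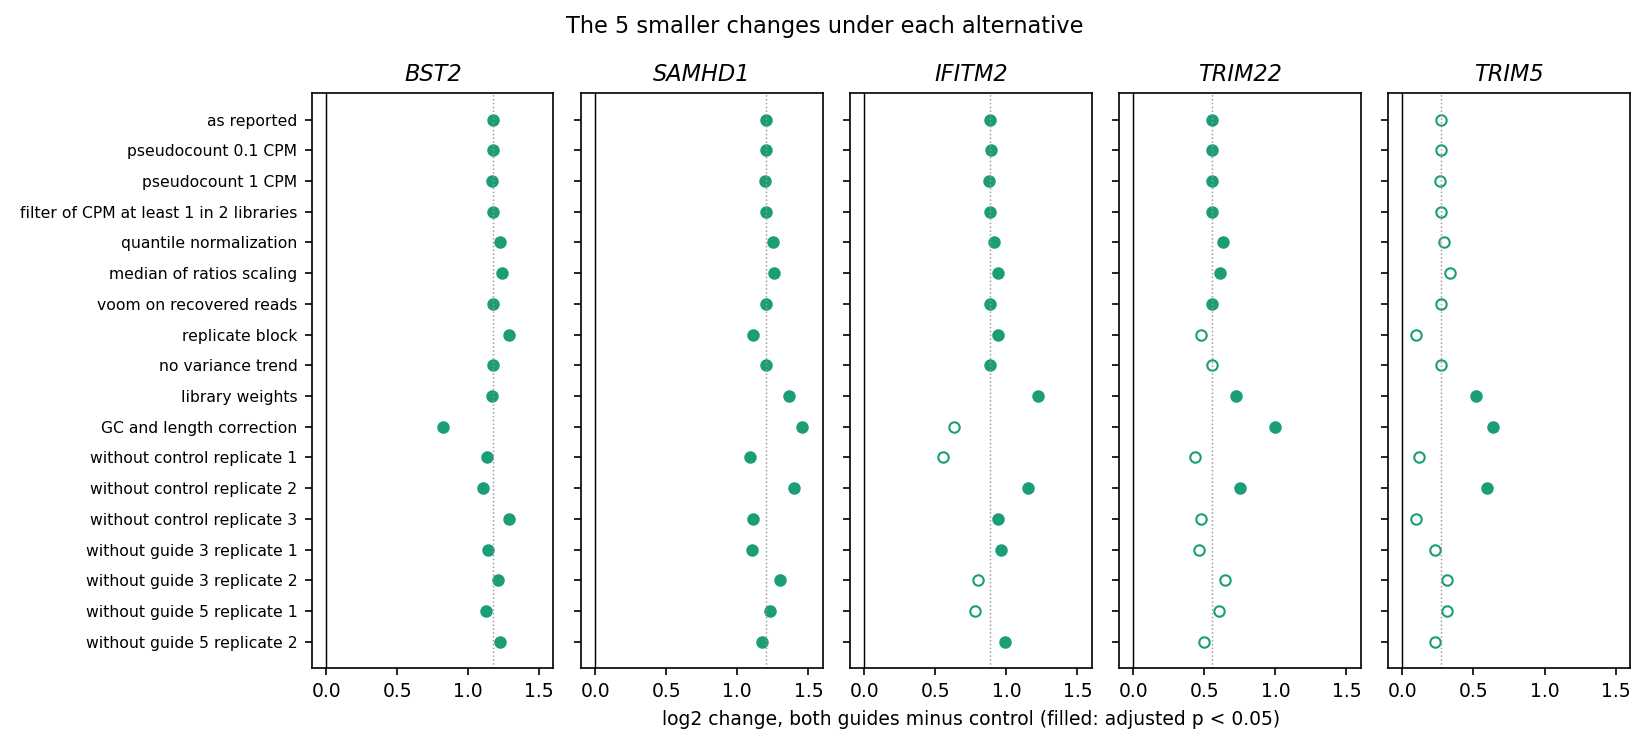
Log2 change of both ZFP36L2 guides minus control for the 5 genes with the smaller changes (columns) under each alternative (rows); filled points have an adjusted p under 0.05 and dotted lines mark the value as reported. BST2 and SAMHD1 keep filled points in every row shown, while IFITM2, TRIM22 and TRIM5 gain or lose the call with the left-out library.

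Genes can be set side by side only per length. Per kilobase of all exon bases annotated to the gene, BST2 was highest in both groups, at 186 CPM per kilobase in the guide libraries and 82.6 in the controls. In the guide libraries IFITM2 (51.3), SAMHD1 (46.0), TRIM22 (34.4), IFITM3 (24.8), MX1 (15.3), MX2 (9.43), TRIM5 (8.87), IFITM1 (2.62) and RSAD2 (2.04) followed. The ranges over libraries of each neighboring pair from MX1 down to TRIM5 overlapped, as did those of IFITM2 and SAMHD1, of TRIM22 and IFITM3, of IFITM3 and MX1, and of IFITM1 and RSAD2. In the controls the order of levels per kilobase was IFITM2 (28.9), TRIM22 (23.8), SAMHD1 (20.3), TRIM5 (7.71), IFITM3 (0.999), MX2 (0.920), MX1 (0.244), RSAD2 (0.0663) and IFITM1 (0.0419). There the ranges of IFITM2, TRIM22 and SAMHD1 overlapped, as did those of IFITM3 and MX2 and of RSAD2 and IFITM1. Divided by the length of the main transcript instead, a choice made after the data were seen, the order changed in the guide libraries for SAMHD1 (97.8) and IFITM2 (88.8) and for MX2 (40.5) and MX1 (38.0), and in the controls for MX2 (3.95) and IFITM3 (1.67), whose ranges no longer overlapped. With either length the 5 genes with the lowest control levels were the 5 with the largest fitted changes. The control level is itself subtracted in each change, so low levels and large changes are linked by calculation. IFITM1 and RSAD2 also had values only because of their guide libraries.

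Taken one at a time, guide 3 gave 8 of the 10 genes called higher, where 21.2% of all genes were, and guide 5 gave 7, where 12.2% of all genes were. The comparisons share the 3 control libraries. The share of all genes called higher moved with the libraries: without control replicate 2 it was 27.9% for guide 3 and 19.6% for guide 5, each with all 10 genes called. It was 9.88% for guide 3 without its replicate 2, 13.0% for guide 3 without its replicate 1, 5.59% for guide 5 without its replicate 1 and 7.14% for guide 5 without its replicate 2, with 6 to 8 of the 10 called.

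TRIM5 and TRIM22 were called with neither guide (TRIM22: adjusted p = 0.12 for guide 3 and 0.070 for guide 5). Without control replicate 2 both were called with both guides (TRIM22: adjusted p = 0.0060 for guide 3 and 0.0029 for guide 5; TRIM5: 0.024 for guide 3 and 0.0069 for guide 5), as they were with the GC and length correction (TRIM22: 0.00035 and 0.00044, TRIM5: 0.021 and 0.015). IFITM2 was called with guide 3 and not with guide 5 (log2 change 0.72 ± 0.30, adjusted p = 0.11). The difference between the guides for IFITM2 was itself not past the threshold (log2 difference -0.33 ± 0.33, adjusted p = 0.75). The guide 3 call of IFITM2 was lost with the GC and length correction (adjusted p = 0.11), without control replicate 1 (0.054) and without replicate 2 of guide 3 (0.15). With guide 5 IFITM2 was called without control replicate 2 (adjusted p = 0.013), with library weights (0.00042) and with quantile normalization (0.049). MX1 changed by 5.27 ± 0.28 with guide 3 and by 6.06 ± 0.28 with guide 5. IFITM3 changed by 3.80 ± 0.24 with guide 3 and by 4.52 ± 0.24 with guide 5. RSAD2 changed by 3.13 ± 0.29 with guide 3 and by 4.04 ± 0.29 with guide 5.

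**Figure D3:**
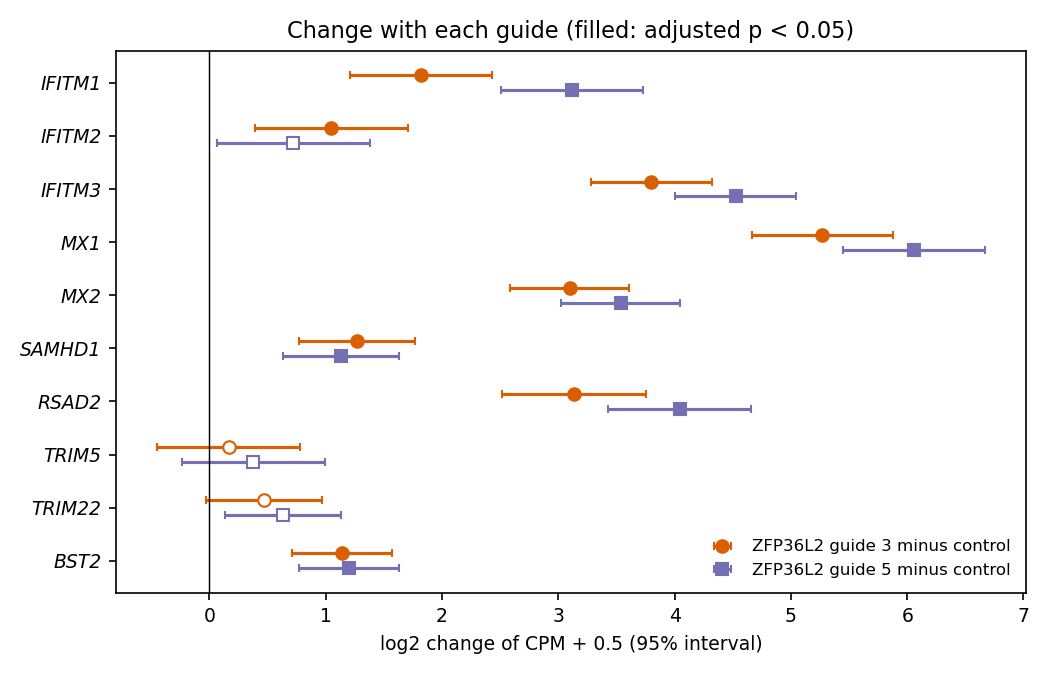
Log2 change of CPM + 0.5 for each gene with guide 3 (circles) and guide 5 (squares) against the controls, with 95% intervals; filled points have an adjusted p under 0.05. The guide 5 points lie to the right of the guide 3 points for MX1, MX2, IFITM1, IFITM3 and RSAD2, with intervals that overlap except for IFITM1. They also lie to the right, by less, for BST2, TRIM22 and TRIM5, and to the left for IFITM2 and SAMHD1.

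The guides were also compared with each other. For 6 of the 10 genes (MX1, MX2, IFITM1, IFITM3, RSAD2 and TRIM5) both guide 5 libraries lay above both guide 3 libraries, a pattern shown by 26.8% of all genes. None of the 10 passed the adjusted threshold by limma, as 0.412% of all genes did. At an unadjusted p under 0.05 there were 4, as were 10.2% of all genes, and voom on the recovered reads called 0. With library weights 5 were called (IFITM1, IFITM3, MX1, MX2 and RSAD2), as were 19.9% of all genes. The 4 at an unadjusted p under 0.05 were IFITM1 (log2 difference of guide 5 minus guide 3 1.29 ± 0.31, adjusted p = 0.13), RSAD2 (0.91 ± 0.31, adjusted p = 0.36), MX1 (0.79 ± 0.31, adjusted p = 0.42) and IFITM3 (0.72 ± 0.26, adjusted p = 0.38). For IFITM1 the difference passed without control replicate 2 (adjusted p = 0.021). The 95% intervals of the difference for BST2 (-0.41 to 0.53) and SAMHD1 (-0.68 to 0.41) leave room for unequal changes in either direction.

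The authors' deposited table gives its own fold changes for each guide over control. For MX1 the authors' deposited table has a log2 fold change of 5.52 for guide 3 and 6.29 for guide 5, and for IFITM1 it has 4.82 for guide 3 and 6.38 for guide 5. In the authors' deposited table the false discovery rate of TRIM22 is 0.134 for guide 3 and 0.0806 for guide 5, that of TRIM5 is 0.812 and 0.468, and that of IFITM2 is 0.0208 and 0.130.

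Genes that produce or carry the interferon signal were counted from lists. Of 21 interferon genes none was among the 11408 genes with values. Of all genes with values, 20.9% were higher and 20.6% lower with the guides, and 27.0% were higher without control replicate 2. Of 19 receptor and signaling genes, 8 were higher and 0 lower with the guides, with a median log2 change of 0.43, and 13 were higher without control replicate 2. Among the called genes were the transcription factors IRF7 (37.9 ± 4.16 CPM in the guide libraries and 5.48 CPM on average in the controls, log2 change 2.83 ± 0.31), STAT2 (1.56 ± 0.16) and IRF9 (1.34 ± 0.27). IRF9 was low, at a mean of 3.60 CPM with the guides and 1.16 CPM in the controls. The receptor subunit IFNGR2 (1.13 ± 0.16) and the kinase TYK2 (0.85 ± 0.18) were also called higher. The receptor subunits IFNAR1 and IFNAR2 had log2 changes of -0.12 ± 0.19 and 0.01 ± 0.17, which did not pass the threshold. Neither did IFNGR1 (0.29 ± 0.18), IFNLR1 (-0.21 ± 0.24), IL10RB (0.43 ± 0.27), JAK1 (-0.03 ± 0.19) and JAK2 (0.09 ± 0.21). Of 10 inhibitors of interferon signaling 4 were higher and 1 lower, against 6 higher and 1 lower without control replicate 2: USP18, which dampens the type I receptor, had a log2 change of 3.02 ± 0.23, the feedback inhibitors SOCS3 and SOCS1 of 1.81 ± 0.23 and 1.25 ± 0.31, and the phosphatase PTPN6 of 1.07 ± 0.19. The gene that was lower was the phosphatase PTPN2, at -0.76 ± 0.20. USP18 had at most 0.702 CPM in the controls, so, like IFITM1, it had values only because of the guide libraries.

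Other restriction factors were listed under 56 symbols, older and newer names included, of which 43 were in the table. Of these, 17 were higher and 3 lower, with a median log2 change of 0.44. Without control replicate 2, 27 were higher and 4 lower, and without control replicate 3, 5 were lower. Among the 17, ISG20 and GBP5 had at most 0.491 and 0.795 CPM in the controls. Like IFITM1, they had values only because of the guide libraries, so their calls were in part fixed beforehand. The number higher was 26 with median of ratios scaling, 28 with library weights, 29 with the GC and length correction and 10 on the FPKM scale, where fewer genes passed the filter. Over all genes 20.9% were higher and 20.6% lower, and 27.0% were higher without control replicate 2. The share of all genes higher was 24.8%, 29.3%, 22.3% and 22.5% in the other settings, in the order given. SIGLEC1, a lectin of macrophages that captures virus particles, had 190 ± 31.2 CPM in the guide libraries (SD, n = 4) and a mean of 1.15 CPM in the controls, a log2 change of 6.88 ± 0.22 (adjusted p = 5.6e-10). HELZ2, an interferon-induced helicase, had a log2 change of 4.39 ± 0.28, SAMD9L, a factor against poxviruses, of 3.42 ± 0.24, and SLFN5, a Schlafen family protein, of 3.15 ± 0.21. The remaining 23 did not pass the threshold in either direction.

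**Figure D4:**
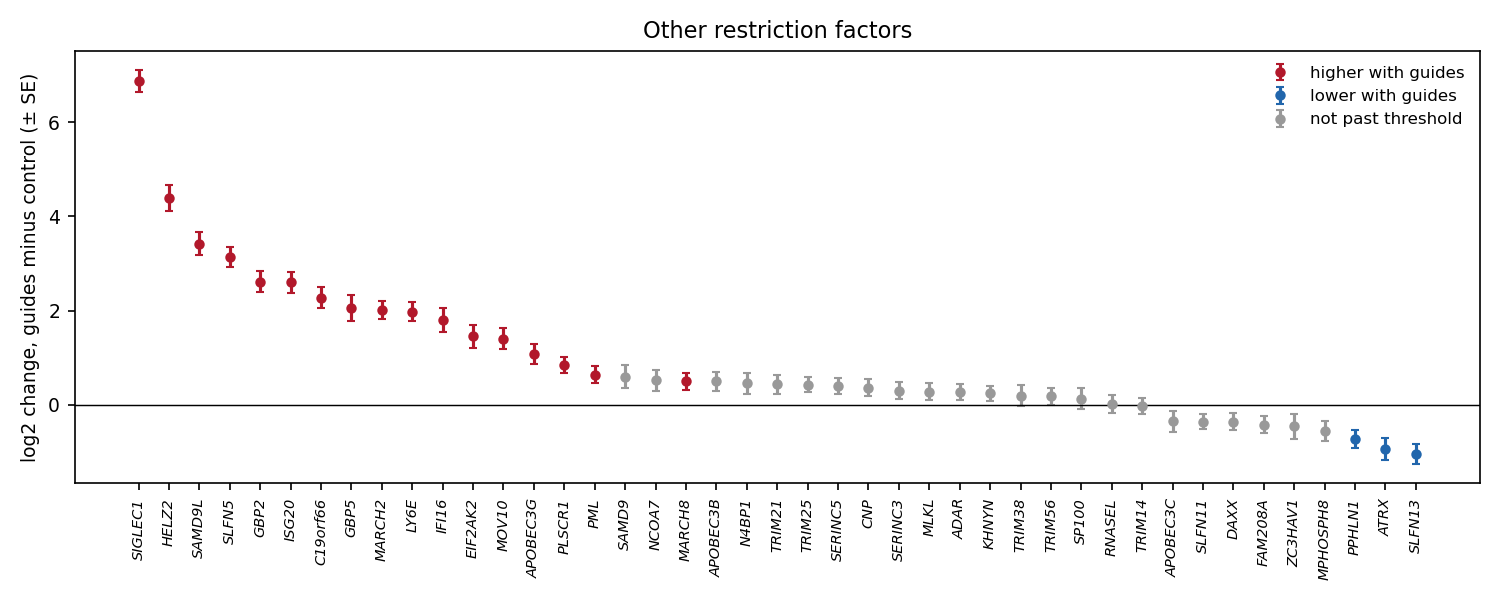
Log2 change (guides minus control, points with SE bars) of the 43 other restriction factors in the table, ordered by size. The called higher genes run from SIGLEC1 at 6.88 down to MARCH8 at 0.50, and PPHLN1, ATRX and SLFN13 are called lower.

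Genes that work with the 10 were counted as well. Viperin needs an iron-sulfur cluster, and of CMPK2 and the cytosolic iron-sulfur assembly genes, 9 in the table, 2 were higher, a share close to that of all genes, and 0 lower: CMPK2 and FAM96B (log2 change 1.34 ± 0.32). Without control replicate 3, and with library weights, 4 were higher, and with the GC and length correction 2 were higher and 2 lower (median log2 change -0.03). Over all genes the share higher was 22.8%, 29.3% and 22.3% in these settings. SAMHD1 opposes the enzymes that make dNTPs, and its antiviral activity is blocked through phosphorylation by cyclin-dependent kinases. Of 20 genes of dNTP supply and these kinases, 2 were higher and 11 lower, with a median log2 change of -0.48, where 20.9% of all genes were higher and 20.6% lower. The kinase inhibitor CDKN1A (2.32 ± 0.17) and the mitochondrial thymidine kinase TK2 (0.89 ± 0.17) were higher, and CDK6 (-0.83 ± 0.20) and the cyclin CCNE2 (-0.82 ± 0.20) were among those lower. The number lower was 4 and the median -0.16 with the GC and length correction, and the number lower was 7 without control replicate 1, 6 without either guide 3 library, 4 without replicate 1 of guide 5 and 7 without replicate 2 of guide 5. Of 23 partners of TRIM5, MX2 and the IFITM proteins, 2 were higher and 7 lower, where 20.9% of all genes were higher and 20.6% lower. The autophagy receptor SQSTM1 rose (1.40 ± 0.16), while the import receptor TNPO1 (-0.93 ± 0.18), the ubiquitin-conjugating partner UBE2V2 (-0.85 ± 0.18) and the nuclear pore protein RANBP2 (-0.84 ± 0.22) fell. With the GC and length correction, where 22.3% of all genes were higher, 5 of the partners were higher and 5 lower, with a median log2 change of -0.0042. The number lower was 11 without control replicate 3, and 4 without replicate 2 of guide 3 or replicate 1 of guide 5.

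Of the 8 myeloid genes, CSF3R (1.20 ± 0.20) and SPI1 (1.16 ± 0.19) were higher and MEIS1 (-0.93 ± 0.22), MPO (-0.80 ± 0.19) and FLT3 (-0.80 ± 0.17) were lower. Of all genes 20.9% were higher and 20.6% lower, and 27.0% were higher without control replicate 2. Without that replicate the counts of the myeloid genes were 4 higher and 3 lower, and the median log2 change of the 8 was 0.24, against 0.0024 with it. Their summed level was 1690 to 1901 CPM in the guide libraries and 1338 to 1836 CPM in the controls. Of markers of other cells, 1 of 4 T cell genes was in the table, CD3D, which was lower at 5.70 to 7.98 CPM in the guide libraries and 13.6 to 18.5 CPM in the controls. Of 4 plasmacytoid dendritic cell genes TCF4 alone was in the table, at 9.38 to 15.5 CPM in the guide libraries and 17.8 to 27.4 CPM in the controls, also lower (log2 change -0.69), though not past the threshold with the GC and length correction (-0.25). Of 4 epithelial genes KRT18 alone was in the table, at 1.07 to 2.01 CPM in the guide libraries and 1.08 to 3.64 CPM in the controls. No gene of the B cell, erythroid and fibroblast lists was among the genes with values. The part of these markers in the results on restriction factors was not tested.

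The genes outside the 10 whose profile over the 7 libraries was nearest to the average profile of the 10, by Pearson's r of log2(CPM + 0.5), were HIST1H1C (r = 0.999), KLF11 (0.997), UBE2L6 (0.997), IL31RA (0.996) and RNF213 (0.995). The 7 points share 2 groups, so r mainly follows the difference between guide and control libraries. UBE2L6, the conjugating enzyme for ISG15, had 36.3 ± 8.03 CPM in the guide libraries and 8.08 ± 1.21 CPM in the controls (SD, n = 4 and n = 3). RNF213, a large interferon-induced ubiquitin ligase, had 260 ± 49.3 CPM in the guide libraries and 56.4 ± 12.0 CPM in the controls. Among the 10 themselves, r with the average profile was highest for MX1 (0.999) and MX2 (0.999) and lowest for TRIM5 (0.502). Each of the 10 is itself part of that average, and genes with larger changes weigh more in it. This order is therefore in part built in.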

How the data were processed

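Per the labels' protocols, poly(A) RNA was made into libraries with a directional kit and sequenced single-end. The builds GRCh38.p7 and hg38 and the tools limma, edgeR, HTSeq and STAR 2.5.3 are named, without roles, per the submitters' processing notes, and the strand setting is not given in the sources used here. The authors deposited FPKM per library and, in a second table, log2 fold changes, p-values with false discovery rates, an F score, and group means of CPM (a signal per adjusted library size). Both tables list 11581 genes, and the 173 without FPKM were left out.

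The deposited FPKM are per kilobase of gene span (within 5% of the GENCODE 29 span for 10382 genes). Multiplying by that length gave CPM, in which 100% of values were whole reads within 0.01. limma 3.58.1 (R 4.3.3) was fitted with a variance trend to log2(CPM + 0.5) of all 11408 genes, with a mean for each guide and the control, two-sided, with 4 residual and 8.78 prior degrees of freedom. Using CPM avoids an added constant that weighs more on long genes. Alternatives were constants of 0.1 and 1, a filter, FPKM with a filter of 1, quantile and median of ratios scaling, voom, a replicate block, no trend, library weights, a GC and length correction, and each library left out. The fit was tested on simulated data. Named are the 10 genes, up to 4 called genes of largest change per list, the 5 nearest profiles and ZFP36L2; one gene that this rule names is not reported here. PTPN2, FLT3, MARCH8, PPHLN1, ATRX, SLFN13, ISG20, GBP5 and the markers CD3D, TCF4 and KRT18 were named after their values were seen. So were the receptor genes IFNAR1, IFNAR2, IFNGR1, IFNGR2, IFNLR1 and IL10RB and the kinases TYK2, JAK1 and JAK2. The 10 genes and all lists were chosen with earlier results of these data known. Other steps used scipy 1.17.1, numpy 2.4.6 and pandas 2.3.3 under Python 3.11.15, and matplotlib 3.10.9 drew the plots. The precision of the lowest values is set by counting: 3 reads came to 0.0784 to 0.162 CPM.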

Additional observations from a re-analysis of the deposited data

Results flagged for a closer look

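CCNE2, a cyclin gene of the list on dNTP supply and SAMHD1 kinases, had 1 sample far from the others among the 4 sgZFP36L2 libraries, which ranged from 82.5 to 105 CPM. The gap took 0.874 of the range, above Dixon's 95% critical value for 4 samples. Chance flags about 1 in 20 groups, and 44 groups were tested.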

How the results depend on the processing

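With both guides against control, the number of restriction factors called higher was 7 to 10 with a library left out, 8 with the replicate block and 8 of 8 on the FPKM scale, whose filter dropped RSAD2 and TRIM5. For guide 3 it was 7 to 10 and for guide 5 it was 6 to 10 with a library left out. Of 712 gene and setting pairs for the 10 genes, 655 kept direction and side of the threshold. Between the guides the count of 0 became 1 (IFITM1) on the FPKM scale, with quantile normalization, with no variance trend and with the GC and length correction, and 5 with library weights (IFITM1, IFITM3, MX1, MX2 and RSAD2), where 19.9% of all genes were called. It was 0 to 1 with a library left out. Over all genes, 1526 were higher and 1339 lower on the FPKM scale, against 2380 and 2347, and leaving out a library gave 1620 to 3076 higher and 1111 to 2951 lower. Quantile normalization turned the balance of calls: guide 3 had 2340 higher and 3245 lower, against 2414 and 2152, and guide 5 had 1601 higher and 1836 lower, against 1393 and 876. Deviations from the group means had correlations of -0.489 to 0.373 between same-numbered libraries. The deviations of the 2 libraries of a guide mirror each other, so this check does not settle whether the replicate numbers pair the libraries. The replicate block, in which control replicate 3 carries no information, gave TRIM22 a log2 change of 0.47 (adjusted p = 0.085) and TRIM5 with guide 3 one of -0.0089, as without control replicate 3. Small differences of guide 5 minus guide 3 turned sign: IFITM2 to 0.0058 and TRIM22 to -0.0067 with the GC and length correction, and with a library left out BST2 ranged from -0.040 to 0.16, SAMHD1 from -0.33 to 0.058 and TRIM22 from -0.018 to 0.35. TRIM5 with guide 3 ranged from -0.0089 to 0.49. The cause was not tested. On the FPKM scale IFITM3 changed by 2.79, MX1 by 2.77 and MX2 by 2.03, as the added constant weighs more on values per gene span. A filter of 1 CPM in 2 libraries removed no gene, so its pairs among the 712 could only stay the same. In the controls, depth limits IFITM1 and RSAD2, which rest on 3 and 21 reads.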

Other observations

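Between the guides, ZFP36L2 mRNA and the 5 most changed restriction factors stood in opposite order. ZFP36L2 had 1132 and 1353 CPM with guide 3 and 734 and 690 CPM with guide 5, a log2 difference of guide 5 minus guide 3 of -0.80 ± 0.21 (limma, adjusted p = 0.18). MX1, MX2, IFITM1, IFITM3 and RSAD2 had differences of 0.44 (MX2) to 1.29 (IFITM1) in the other direction, none past the adjusted threshold. TRIM5 (0.21), TRIM22 (0.17) and BST2 (0.06) also had positive differences, while IFITM2 (-0.33) and SAMHD1 (-0.14) had negative ones. Of all genes, 26.8% had both guide 5 libraries above both guide 3 libraries. With 2 guides, any gene stands either in the same or in the opposite order. CMPK2, the neighbor of RSAD2, also had a positive difference, 0.80 (adjusted p = 0.38).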
